A study of Homo sapiens with 16 samples.

Results

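Matrix metalloproteinases (MMPs) and their inhibitors, the tissue inhibitors of metalloproteinases (TIMPs), were followed through a stepwise model of malignant transformation. The set holds 10 of the 19356 protein-coding genes in the deposited table, namely the collagenase MMP1, the gelatinase MMP2, the stromelysins MMP3, MMP10 and MMP11, the membrane-type enzymes MMP14 and MMP16, and the inhibitors TIMP1, TIMP2 and TIMP3. They were chosen by name, and the transcript values of each gene were summed. The model consists of human BJ fibroblasts, a cell line, in 4 isogenic stages: primary BJ cells without added genes, immortalized cells with hTERT (the catalytic subunit of telomerase), transformed cells with hTERT and SV40 Large-T, and metastasizing cells with hTERT, SV40 and the activated Ras-G12V. Every stage was grown for 6 passages either at atmospheric oxygen or at 3% oxygen, in the same serum-containing medium, and RNA of duplicate plates was sequenced, which gives 8 groups of 2 libraries labelled a and b. Each stage is represented by 1 line, so p-values measure the spread between plates and not between independently made lines. Levels are given as TPM, the share of a transcript in its library scaled by transcript length, which can be compared between genes.

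MMPs are zinc-dependent endopeptidases that cleave the extracellular matrix. Most are secreted as inactive proenzymes, whereas the membrane-type members stay at the cell surface, and MMP14 together with TIMP2 is known for activating pro-MMP2 there. TIMPs bind active MMPs in a 1 to 1 complex, so the amounts of both sides matter for proteolysis, and fibroblasts are a main source of both. All values here are transcripts, and secretion, proenzyme activation and enzyme activity were not measured.

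Depth is unknown, because TPM keep no read counts. In primary cells TERT was at 0 TPM in both plates grown at atmospheric oxygen, did not exceed 0.543 TPM in the primary libraries at 3% oxygen and lay between 31.6 and 193 TPM in the 12 later libraries. HRAS did not set the libraries labelled metastasizing apart at atmospheric oxygen (94.6 and 78.1 TPM, against 120 and 99.0 TPM in transformed cells), and it differed between the metastasizing libraries at 3% oxygen (143 and 772 TPM). Mutated and endogenous HRAS cannot be told apart in the table. Those metastasizing libraries at 3% oxygen also differed from each other by more than 2-fold at 1301 of 11843 expressed genes, while in the other 7 groups 1.83% to 4.08% of genes did, so called changes that rest on them, and the TIMP3 changes, are also given without each of them. The 8 fibroblast markers reached 1 TPM in every library, the 4 epithelial markers together stayed at or below 3.61 TPM, and the 2 endothelial markers found in the table at or below 0.547 TPM. The 4 white blood cell markers together lay between 43.9 and 166 TPM, with a single marker at up to 162 TPM. Of these, 1 reached 1 TPM in every library and none stayed below 1 TPM in all libraries.

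**Figure D1:**
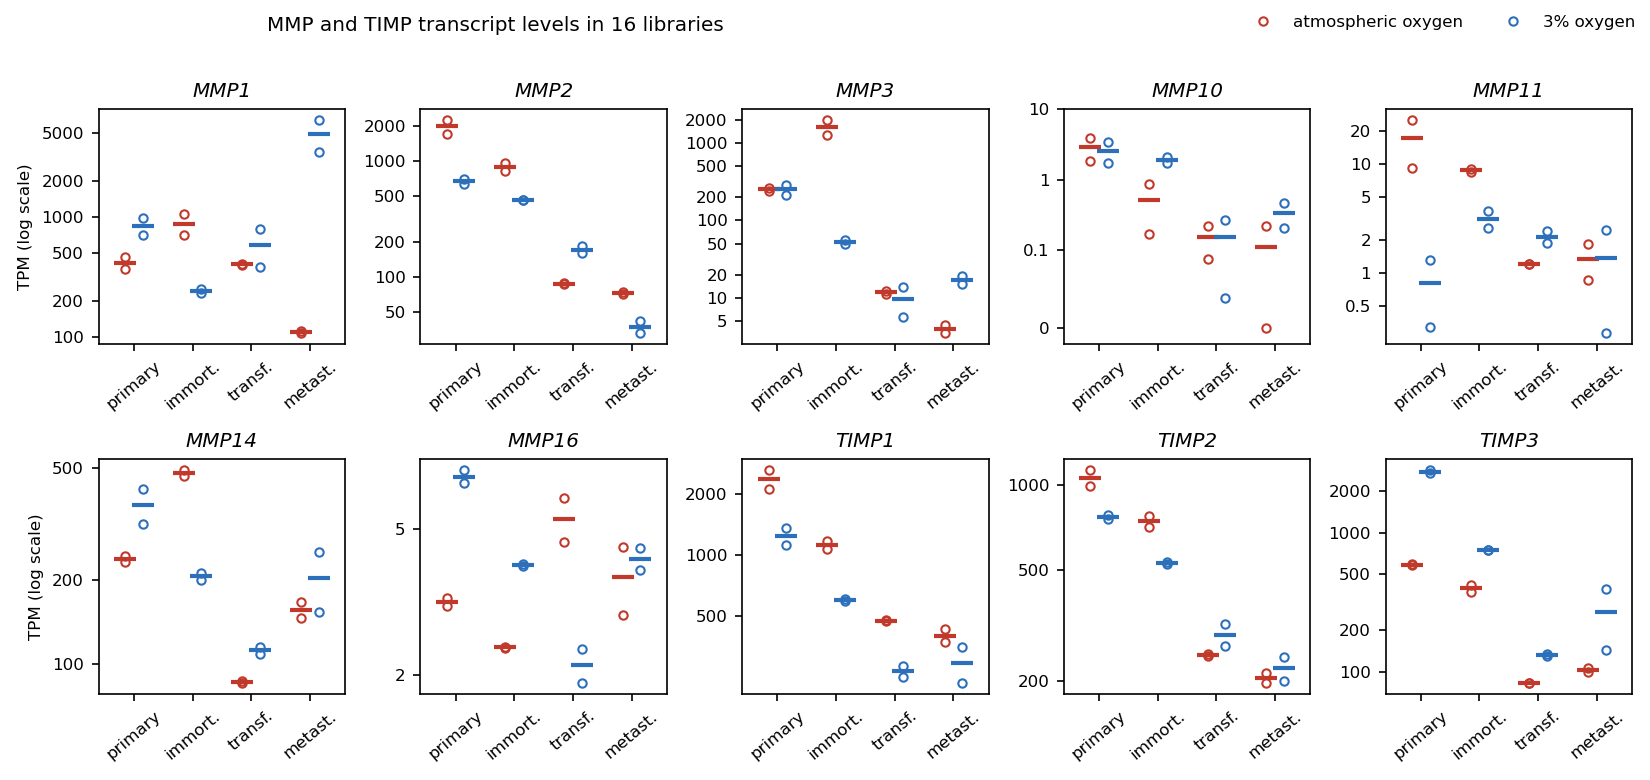
Levels of the 10 genes in TPM (logarithmic axes, linear below 0.1 for MMP10) in the 4 stages at atmospheric oxygen (red) and 3% oxygen (blue). Circles are single libraries and horizontal bars are means of 2 libraries. MMP1 reached its highest level in metastasizing cells at 3% oxygen (3467 and 6422 TPM), whereas TIMP3 was higher at 3% oxygen in every stage.

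MMP1, interstitial collagenase, cleaves fibrillar collagens of types I and III and spanned a 45.2-fold range of group means. In primary cells MMP1 was at 463 and 370 TPM at atmospheric oxygen and at 970 and 709 TPM at 3% oxygen. In immortalized cells the order was turned, with 1050 and 704 TPM at atmospheric and 252 and 230 TPM at 3% oxygen. The groups did not overlap in either stage. Transformed cells held 407 and 399 TPM of MMP1 at atmospheric oxygen and 385 and 788 TPM at 3% oxygen, where the libraries overlapped. Metastasizing cells held both extremes, with 107 and 112 TPM at atmospheric oxygen and 3467 and 6422 TPM at 3% oxygen. From the lowest, the 8 groups ran from metastasizing at atmospheric oxygen through immortalized at 3% oxygen to 5 groups with means from 403 to 877 TPM, in which each group overlapped with the next lower one after the first, and then to metastasizing cells at 3% oxygen, which lay apart.

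MMP2, gelatinase A, degrades denatured collagen and type IV collagen of basement membranes, and it declined along the model. Its levels in primary cells were 2245 and 1718 TPM at atmospheric oxygen and 634 and 695 TPM at 3% oxygen. Immortalized cells had 953 and 820 TPM at atmospheric oxygen and 459 and 459 TPM at 3% oxygen. Transformed cells had 86.2 and 89.2 TPM against 185 and 160 TPM, the only stage with more MMP2 at 3% oxygen. Metastasizing cells had 73.7 and 72.0 TPM against 32.8 and 42.0 TPM. All 8 groups lay apart from the next lower group, over a 53.0-fold range of means. The transcript MMP2-204 held 0.366% of the MMP2 sum in primary cells at atmospheric oxygen and 10.8% to 25.8% in the other groups (means).

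MMP3, stromelysin-1, cleaves proteoglycans, fibronectin and laminin and can activate other proenzymes, including pro-MMP1. It had the widest range of the 10 genes, 401-fold between group means. Primary cells held 238 and 264 TPM at atmospheric and 215 and 288 TPM at 3% oxygen, where the libraries overlapped. In immortalized cells it was at 1972 and 1255 TPM at atmospheric oxygen and at 50.0 and 56.5 TPM at 3% oxygen. From the transformed stage on, no library exceeded 19.2 TPM. The levels there were 12.3 and 11.2 against 5.73 and 13.8 TPM in transformed cells, which overlapped, and 3.51 and 4.54 against 19.2 and 15.3 TPM in metastasizing cells, which did not.

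MMP10 (stromelysin-2) and MMP11 (stromelysin-3) were present at low levels. MMP10 had group means of 2.89 and 2.57 TPM in primary cells and 1.91 TPM in immortalized cells at 3% oxygen, and its mean was below 1 TPM in the other 5 groups, so it was tested only where one of the first 3 groups entered. MMP11 was highest in primary cells at atmospheric oxygen, although these libraries differed from each other (25.2 and 9.25 TPM), and lowest in primary cells at 3% oxygen (1.31 and 0.323 TPM). It was at 8.40 and 9.09 TPM in immortalized cells at atmospheric oxygen and did not exceed 3.68 TPM in any library of the remaining groups.

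MMP14, also called MT1-MMP, had a narrow range of 5.57-fold. It was at 244 and 231 TPM in primary cells at atmospheric oxygen and at 422 and 317 TPM at 3% oxygen. In immortalized cells the values were 494 and 469 TPM at atmospheric and 212 and 199 TPM at 3% oxygen, again without overlap but in the other direction. Transformed cells had 85.7 and 87.2 against 109 and 115 TPM, and metastasizing cells 167 and 146 against 153 and 252 TPM, where the libraries overlapped. In primary cells at atmospheric oxygen the transcript MMP14-201 held 96.4% of the MMP14 sum and MMP14-205 held 0.833% (means). In the other groups MMP14-201 held 68.0% to 72.7% and MMP14-205 held 24.9% to 28.7%. MMP14 changes and ratios that involve the first of these groups thus partly reflect MMP14-205, and MMP14-201 alone was not tested. MMP16 (MT3-MMP) stayed between 1.90 and 7.28 TPM in all 16 libraries, and 35.3% of its summed TPM came from 1 transcript without a defined coding sequence. This transcript, MMP16-204, held 0% in primary cells at atmospheric oxygen and 23.1% to 48.9% in the other groups (means).

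TIMP1, which inhibits most secreted MMPs, and TIMP2, which also takes part in pro-MMP2 activation, were lower in transformed than in primary cells at both oxygen levels. TIMP1 was at 2642 and 2128 TPM in primary cells at atmospheric oxygen and at 1360 and 1127 TPM at 3% oxygen. The corresponding values were 1069 and 1180 against 610 and 597 TPM in immortalized, 479 and 473 against 251 and 285 TPM in transformed, and 431 and 372 against 234 and 351 TPM in metastasizing cells. In each stage both libraries at 3% oxygen were below both at atmospheric oxygen. TIMP2 fell from a mean of 1067 ± 98.9 TPM (SD, n = 2) in primary to 206 ± 11.9 TPM in metastasizing cells at atmospheric oxygen, and from 774 ± 18.8 to 222 ± 30.5 TPM at 3% oxygen.

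TIMP3, which binds to the matrix and also inhibits ADAM proteases, behaved the other way round with oxygen. It was at 581 and 591 TPM in primary cells at atmospheric oxygen and at 2828 and 2673 TPM at 3% oxygen, its highest level. The values were 419 and 374 against 755 and 747 TPM in immortalized cells, 82.8 and 82.9 against 129 and 134 TPM in transformed cells, and 98.9 and 106 against 390 and 144 TPM in metastasizing cells. Both libraries at 3% oxygen were thus above both at atmospheric oxygen in all 4 stages.

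Promoter sequences (RefSeq, GRCh38.p14) were matched for 5 of the 10 genes. The 150 bases before the start of TIMP1 (plus strand, chrX:47582286-47582435), TIMP3 (plus strand, chr22:32801555-32801704) and MMP14 (plus strand, chr14:22836435-22836584) are shown because both inhibitors moved in opposite directions with oxygen and the direction of MMP14 depended on the stage, with capitals marking the core of the hypoxia response element, ACGTG or GCGTG on either strand (that of TIMP3 lies further upstream).
TIMP1: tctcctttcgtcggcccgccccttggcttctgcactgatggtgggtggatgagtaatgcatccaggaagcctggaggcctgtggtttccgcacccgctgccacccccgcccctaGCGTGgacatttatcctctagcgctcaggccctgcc
TIMP3: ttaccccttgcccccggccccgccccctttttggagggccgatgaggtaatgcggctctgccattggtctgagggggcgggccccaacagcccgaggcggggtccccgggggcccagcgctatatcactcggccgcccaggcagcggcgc
MMP14: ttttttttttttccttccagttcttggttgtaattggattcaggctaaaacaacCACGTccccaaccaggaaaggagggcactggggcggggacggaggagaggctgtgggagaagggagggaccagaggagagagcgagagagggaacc
Within the full 250 bases before the start, the core was found at -231 and -36 for TIMP1, at -213 for TIMP3, at -96 for MMP14 and at -233 for MMP10, counted from the start site to the first base, and it was not found for MMP11. The same letters were found in 43.2% of 35116 promoters of that length. The AP-1 motif TGANTCA, searched on both strands, was found at -67 of MMP10 and not in the other 4 windows, and 6.57% of all promoters held it.

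Neighbouring comparisons share groups, so their values are not independent of each other. The first question was how the shift to 3% oxygen changed the genes within each stage. A gene was called when its adjusted p was under 0.01 and its change was over 2-fold, in limma's moderated test on log2(TPM + 0.5) fitted to all 16 libraries, with Benjamini-Hochberg adjustment over all genes tested. Fold changes are on that scale, which understates changes of low genes. In primary cells 4 of 10 members were called, against 5.30% of all 12184 genes tested (2.78% higher and 2.52% lower). TIMP3 rose, with a log2 fold change of 2.23 ± 0.31 (SE, adjusted p = 0.00069), and MMP16 rose by 1.03 ± 0.21 (adjusted p = 0.00451). MMP2 fell by 1.56 ± 0.14 (adjusted p = 5.63e-05) and MMP11 fell by 3.70 ± 0.62 (adjusted p = 0.0017). MMP1 had means of 840 against 416 TPM and was not called (adjusted p = 0.0513), while MMP3 and MMP10 overlapped between the oxygen levels. With 1 library left out in turn, TIMP3 and MMP2 were called each time. MMP11 was not called without library a at atmospheric oxygen (adjusted p = 0.021) or without library b at 3% oxygen (adjusted p = 0.0212), and MMP16 was not called without any of the 4 (adjusted p = 0.0207 to 0.0385). With protein-coding transcripts alone the change of MMP16 was 0.39 (adjusted p = 0.293).

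**Figure D2:**
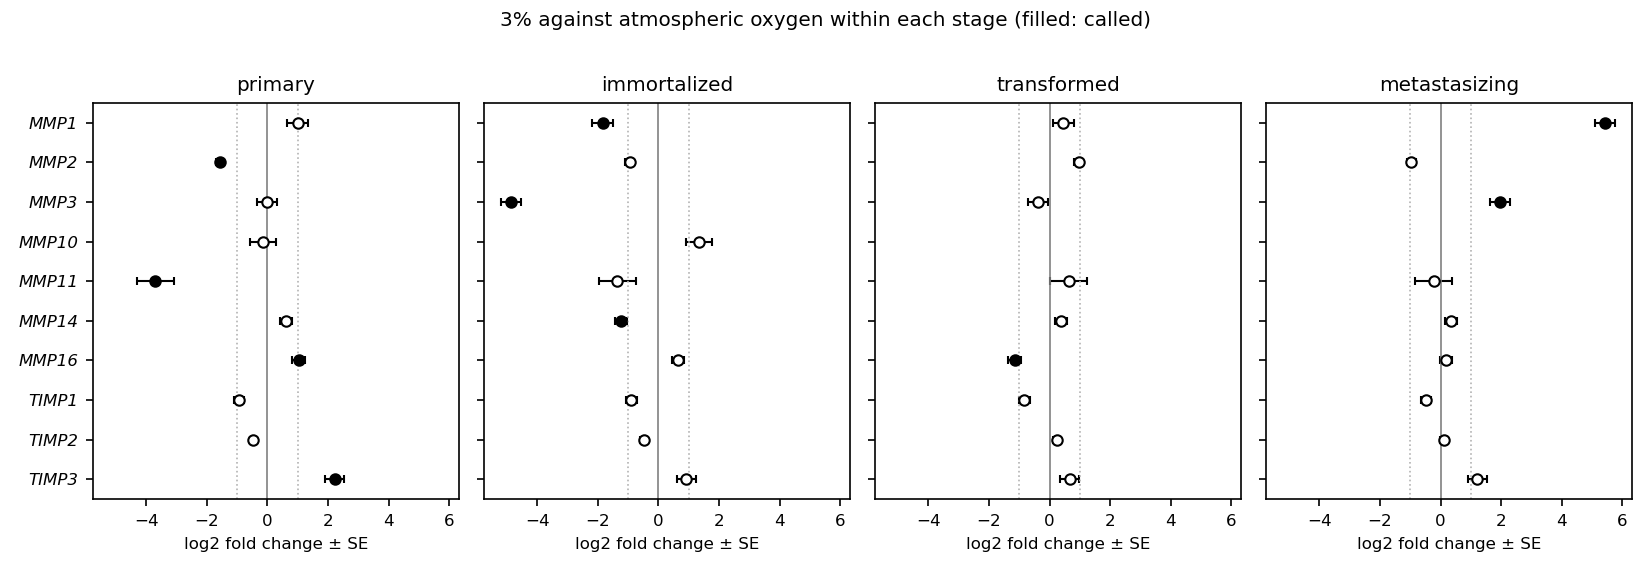
Log2 fold change of each gene at 3% against atmospheric oxygen in the 4 stages, with standard errors from limma. Filled points passed the call, open points did not, and dotted lines mark 2-fold. MMP1 lay at -1.84 in immortalized and at 5.42 in metastasizing cells, and TIMP1 lay below 0 and TIMP3 above 0 in all 4 stages.

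In immortalized cells 3 of 10 members were called, all lower at 3% oxygen, where 4.91% of all genes tested were called, 2.13% higher and 2.78% lower. MMP3 fell by 4.88 ± 0.33 (adjusted p = 1.59e-05), which is 30.3-fold between means. MMP1 fell by 1.84 ± 0.34 (adjusted p = 0.00312) and MMP14 by 1.22 ± 0.19 (adjusted p = 0.00127). The median change of the 10 members was -0.92, and that of all genes tested was 0.11. MMP3 was called without any single library. MMP14 was lost without each of the 4 (adjusted p = 0.0101 to 0.0142), and MMP1 without library a at atmospheric oxygen or either library at 3% oxygen (adjusted p up to 0.0313).

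In transformed cells 1 of 9 members tested was called, beside 7.48% of all genes (4.90% higher and 2.58% lower). MMP16 was lower at 3% oxygen by -1.15 ± 0.21 (adjusted p = 0.00182). This call was not kept with protein-coding transcripts alone (-0.59, adjusted p = 0.102), nor without library a at atmospheric or library b at 3% oxygen. MMP2 differed by 0.96 ± 0.14 with an adjusted p of 0.000649, which is just inside 2-fold and therefore not called.

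In metastasizing cells 2 of 9 members tested were called, both higher at 3% oxygen, where 7.66% of all genes were called, 3.06% higher and 4.60% lower. MMP1 rose by 5.42 ± 0.34 (adjusted p = 4.77e-06), the largest oxygen change among the members, and the ratio of means was 45.2. Without library a at 3% oxygen the change was 5.87, and without library b it was 4.98. MMP3 rose by 1.97 ± 0.33 (adjusted p = 0.0016) to a level that remained below 20 TPM. Without library a at 3% oxygen it was not called (1.81, adjusted p = 0.0107), nor without library a at atmospheric oxygen (adjusted p = 0.0183), and without library b at 3% oxygen it was called (2.13, adjusted p = 0.00315). Library b, with the higher MMP1, was also the library with the higher HRAS; whether these levels are related was not tested. The TIMP3 difference, 1.21 ± 0.31, had an adjusted p of 0.0158 and depended on the library: without library b at 3% oxygen it was 1.93, and without library a it was 0.49.

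TIMP1 had log2 differences of -0.94, -0.90, -0.83 and -0.48 in the order of the stages and was not called in any. None exceeded 2-fold, and in metastasizing cells the adjusted p was not under 0.01 either. The adjusted p was 0.00348, 0.00419, 0.00471 and 0.0646. TIMP3 differed by 2.23, 0.92, 0.67 and 1.21 and was called in primary cells alone. The differences of the TIMP1 and TIMP3 oxygen response between neighbouring stages did not pass the call (adjusted p = 0.107 to 0.95). For TIMP3 between transformed and metastasizing cells this difference was 0.54, and it was 1.26 without metastasizing library b at 3% oxygen and -0.18 without library a.

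The second question was what changed from each stage to the next. At atmospheric oxygen, 5 of 10 members were called from primary to immortalized cells, where 12.2% of all genes were called, 5.98% higher and 6.26% lower. MMP3 rose by 2.65 ± 0.33 (adjusted p = 0.00012) and MMP14 rose by 1.02 ± 0.19 (adjusted p = 0.00193). The transcript MMP14-205 held 0.833% of the MMP14 sum in primary and 26.4% in immortalized cells here, and the rise without it was not tested. MMP2 fell by 1.15 ± 0.14 (adjusted p = 0.000124), TIMP1 fell by 1.08 ± 0.18 (adjusted p = 0.000776) and MMP10 fell by 1.76 ± 0.43 (adjusted p = 0.0079). MMP3 was called without any single library. MMP14 was lost without each of the 4 libraries (adjusted p = 0.0108 to 0.0175). Primary library a, which held the higher MMP2, TIMP1 and MMP10, decided several of these: without it MMP3 alone was called, and without immortalized library a 3 members were.

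From immortalized to transformed cells at atmospheric oxygen 8 of 9 members tested were called, 7 lower and 1 higher, where 24.3% of all genes were called, 13.2% higher and 11.2% lower. MMP3 fell by 7.01 ± 0.33 (adjusted p = 5.87e-08), a 137-fold drop between means. MMP2 fell by 3.33 ± 0.14 (adjusted p = 3.5e-08), MMP14 by 2.47 ± 0.19 (adjusted p = 1.69e-06) and MMP11 by 2.43 ± 0.62 (adjusted p = 0.00593). All 3 inhibitors fell, TIMP1 by 1.24 ± 0.18 (adjusted p = 0.000141), TIMP2 by 1.58 ± 0.12 (adjusted p = 1.05e-06) and TIMP3 by 2.25 ± 0.31 (adjusted p = 0.000118). MMP16 rose by 1.01 ± 0.21 (adjusted p = 0.00154). The median change of the tested members was -2.25, against 0.22 over all genes tested. MMP2, MMP3, MMP14 and the 3 inhibitors were called under every alternative fit and without any single library. MMP11 was lost without each of the 4 libraries (adjusted p = 0.0271 to 0.0307), and MMP16 without either immortalized library or transformed library a (adjusted p up to 0.0207) and with protein-coding transcripts alone (0.88, adjusted p = 0.014).

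From transformed to metastasizing cells at atmospheric oxygen 1 of 9 members tested was called, beside 4.12% of all genes (2.40% higher and 1.72% lower). MMP1 fell by 1.88 ± 0.34 (adjusted p = 0.00372), although without any of the 4 libraries it was not called (adjusted p = 0.0266 to 0.0294). MMP3 and MMP14 differed by -1.45 and 0.85 and did not pass (adjusted p = 0.0119 and 0.0116).

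**Figure D3:**
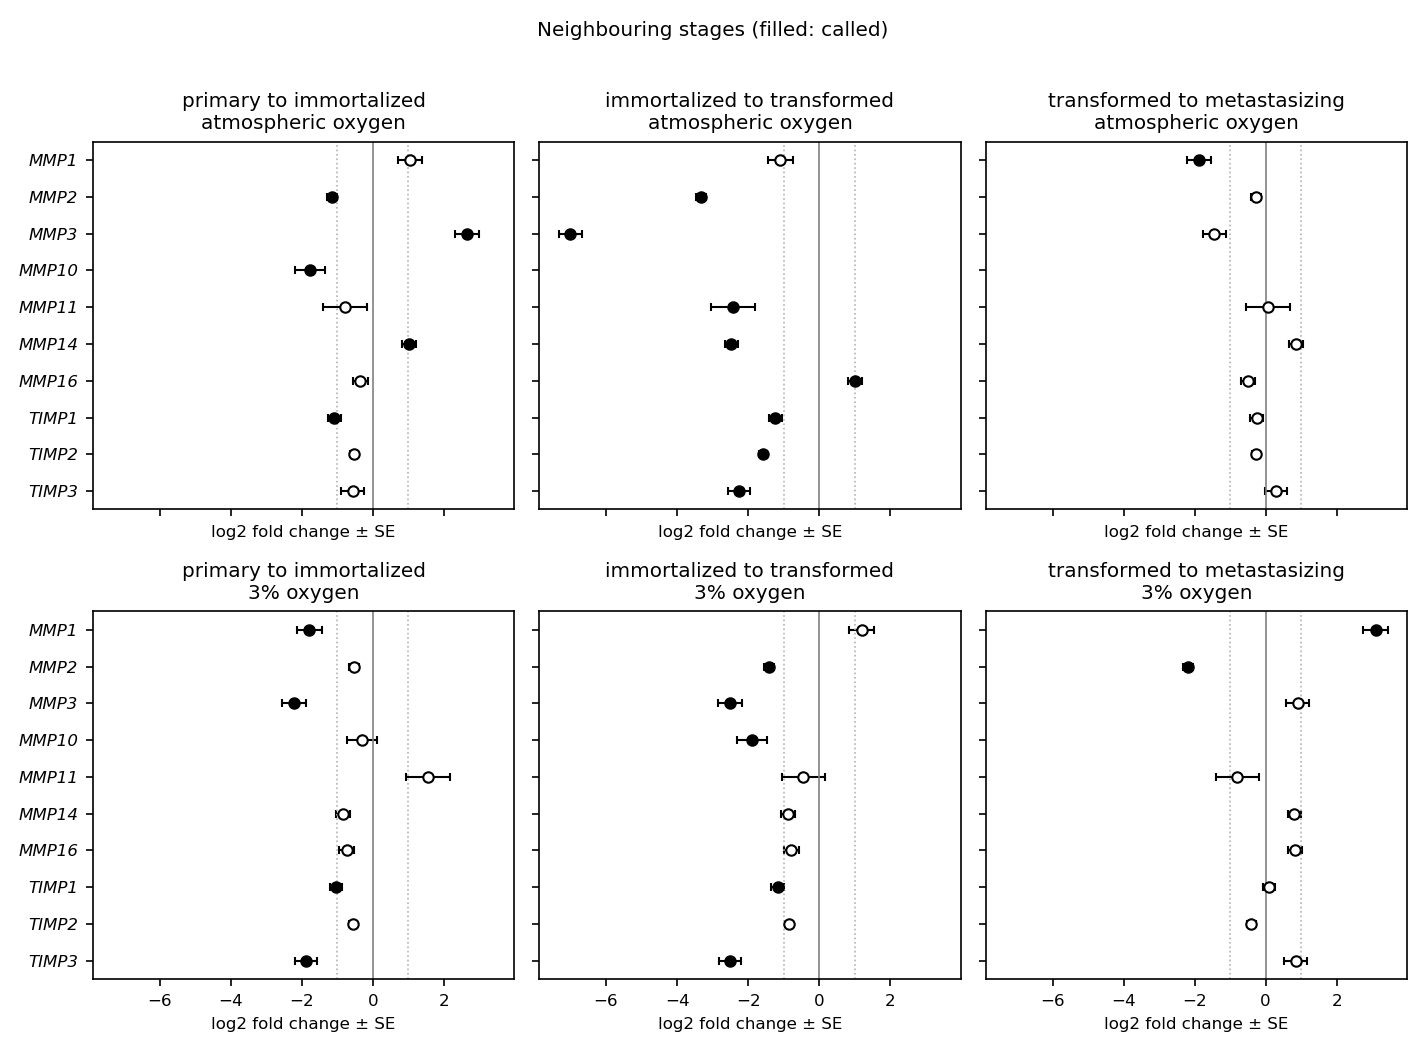
Log2 fold change with standard error of each gene from one stage to the next, at atmospheric oxygen (top) and 3% oxygen (bottom). Filled points passed the call, dotted lines mark 2-fold, and a gene without a point was not tested. At the step to the transformed stage 7 genes were called lower at atmospheric oxygen and 5 at 3% oxygen. At the step to the metastasizing stage MMP1 lay at -1.88 at atmospheric oxygen and at 3.10 at 3% oxygen.

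At 3% oxygen, 4 of 10 members were called from primary to immortalized cells, all lower, where 9.23% of all genes were called, 4.19% higher and 5.04% lower. They were MMP3 (-2.22 ± 0.33, adjusted p = 0.00057), TIMP3 (-1.87 ± 0.31, adjusted p = 0.00124), MMP1 (-1.78 ± 0.34, adjusted p = 0.00276) and TIMP1 (-1.04 ± 0.18, adjusted p = 0.00138). MMP3 was called without any single library, whereas the other 3 were lost without primary library a or either immortalized library (adjusted p up to 0.0285). MMP3 thus rose at this step at atmospheric oxygen and fell at 3% oxygen.

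From immortalized to transformed cells at 3% oxygen 5 of 10 members were called, all lower, beside 16.3% of all genes (8.96% higher and 7.38% lower). MMP3 and TIMP3 both fell by 2.51 (SE 0.33 and 0.31, adjusted p = 0.000139 and 9.73e-05). MMP10 fell by 1.90 ± 0.43 (adjusted p = 0.0041), MMP2 by 1.42 ± 0.14 (adjusted p = 2.26e-05) and TIMP1 by 1.17 ± 0.18 (adjusted p = 0.000345). MMP10 was lost without each of the 4 libraries (adjusted p = 0.0114 to 0.0325), and the other 4 were called each time.

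From transformed to metastasizing cells at 3% oxygen 2 of 9 members tested were called, where 5.92% of all genes were called, 1.99% higher and 3.93% lower. MMP1 rose by 3.10 ± 0.34 (adjusted p = 0.000183) and MMP2 fell by 2.19 ± 0.14 (adjusted p = 6.8e-06). Without metastasizing library a these changes were 3.54 and -2.02, and without library b 2.65 and -2.37. Leaving out 1 library also takes the spread between the metastasizing plates out of the fit. When only the groups compared were fitted, neither MMP1 (adjusted p = 0.0814) nor MMP2 (adjusted p = 0.0551) was called. The other 7 members tested did not pass, and the TIMPs differed by 0.10 (TIMP1), -0.40 (TIMP2) and 0.84 (TIMP3). The TIMP3 difference was 1.56 without metastasizing library b and 0.12 without library a.

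Whether the oxygen response itself differed between neighbouring stages was tested as the difference of the log2 changes. From primary to immortalized cells it differed for 3 of 10 members, MMP1, MMP3 and MMP14, all with a more negative response in immortalized cells, beside 1.86% of all genes (0.800% higher and 1.06% lower). From immortalized to transformed cells it differed for 5 of 10 (12.0% of all genes, 6.13% higher and 5.84% lower), with a higher response of MMP1, MMP2, MMP3 and MMP14 and a lower one of MMP16. From transformed to metastasizing cells it differed for 4 of 9 tested (8.47% of all genes, 2.84% higher and 5.62% lower), with a higher response of MMP1, MMP3 and MMP16 and a lower one of MMP2. Of these 12 differences, MMP2 and MMP3 between immortalized and transformed cells and MMP1 and MMP2 between transformed and metastasizing cells were called under every alternative tried.

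The balance was taken as the summed TPM of the 7 MMPs over that of the 3 TIMPs in each library. It is a sum over chosen genes and is given with its spread and no test. At atmospheric oxygen primary cells had ratios of 0.739 and 0.699, immortalized cells 2.04 and 1.40, transformed cells 0.741 and 0.736, and metastasizing cells 0.490 and 0.491. At 3% oxygen it was 0.453 and 0.442, 0.517 and 0.511, 0.981 and 1.58, and 4.46 and 9.12 in the same order. MMP transcripts therefore exceeded TIMP transcripts in both libraries of immortalized cells at atmospheric oxygen and of metastasizing cells at 3% oxygen, and in 1 library of transformed cells at 3% oxygen. With 3% oxygen the mean log2 ratio changed by -0.68 (primary), -1.72 (immortalized), 0.75 (transformed) and 3.70 (metastasizing). The largest SD of the log2 ratio within a group (n = 2) was 0.73, in metastasizing cells at 3% oxygen, followed by 0.48 in transformed cells at 3% oxygen and 0.38 in immortalized cells at atmospheric oxygen. The libraries at the 2 oxygen levels did not overlap in any stage.

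**Figure D4:**
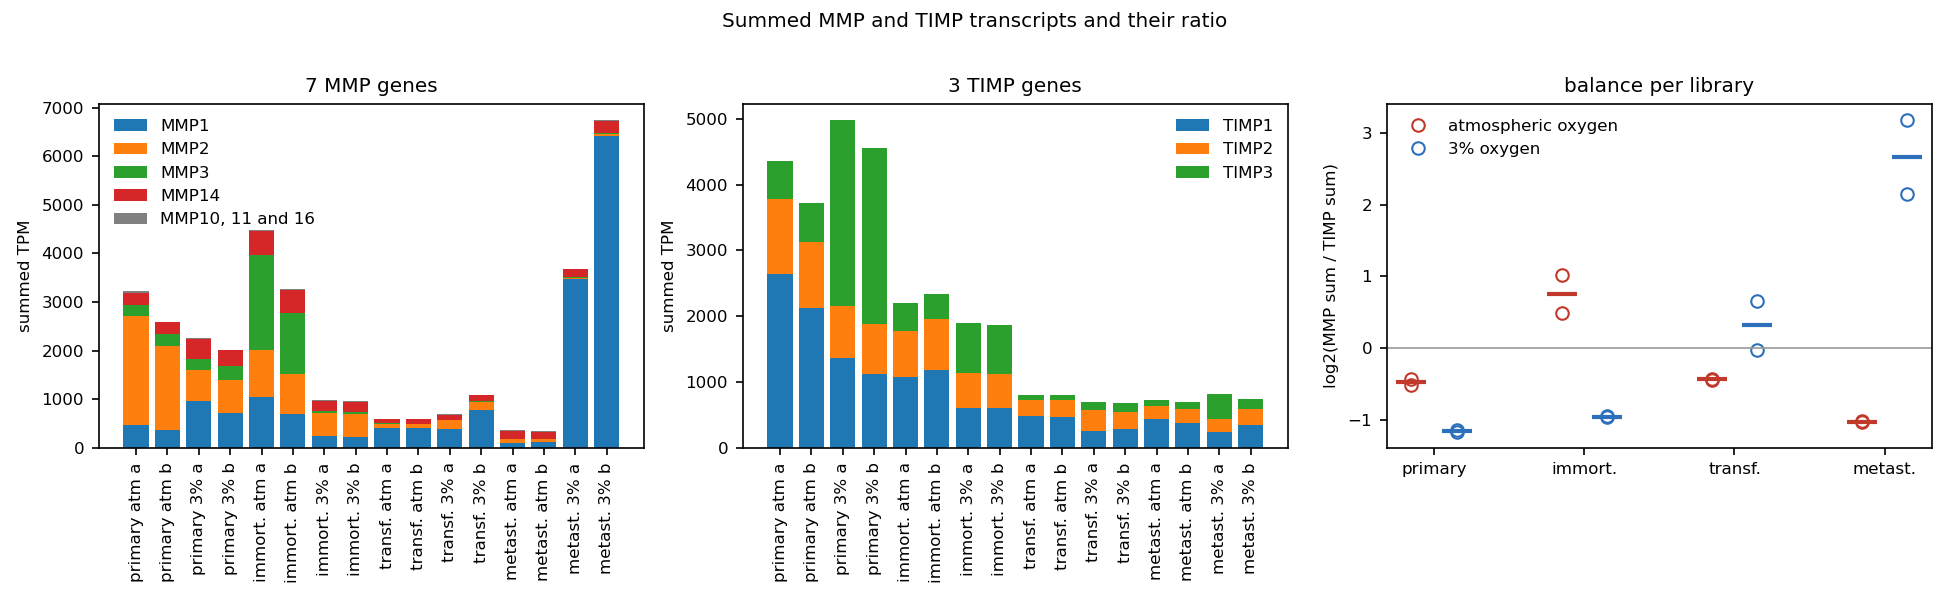
Summed TPM of the MMP genes (left) and the TIMP genes (middle) in each of the 16 libraries, divided by gene (MMP10, MMP11 and MMP16 together), and the log2 ratio of both sums (right, circles are libraries, bars are means of 2). The MMP sum of metastasizing cells at 3% oxygen consisted almost entirely of MMP1, and the ratio there was 4.46 and 9.12. The TIMP sum fell from primary to transformed cells at both oxygen levels.

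The composition of the sums differed between groups. MMP2 made up 69.7% and 66.2% of the MMP transcripts in primary cells at atmospheric oxygen, MMP3 made up 44.02% and 38.5% in immortalized cells at atmospheric oxygen, MMP1 made up 68.0% and 67.3% in transformed cells at atmospheric oxygen, and MMP14 made up 46.8% and 43.1% in metastasizing cells at atmospheric oxygen. In metastasizing cells at 3% oxygen MMP1 made up 94.3% and 95.3%. Without MMP1 the change with oxygen in that stage was -0.025 in place of 3.70, so the higher ratio there lay in MMP1. On the inhibitor side TIMP1 held 60.6% and 57.3% of the TIMP transcripts in primary cells at atmospheric oxygen, and TIMP3 held 56.8% and 58.6% at 3% oxygen.

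Pairs of enzyme and inhibitor gave different pictures. The ratio of MMP1 to TIMP1 was 0.249 and 0.300 in metastasizing cells at atmospheric oxygen and 14.8 and 18.3 at 3% oxygen. The ratio of MMP2 to TIMP2 fell from 1.97 and 1.72 in primary cells at atmospheric oxygen to 0.374 and 0.336 in metastasizing cells, and at 3% oxygen from 0.805 and 0.914 to 0.164 and 0.172. The ratio of MMP14 to TIMP2 was lowest in primary cells at atmospheric oxygen (0.214 and 0.232). Its group means were highest in metastasizing cells, where it was 0.845 and 0.683 at atmospheric and 0.763 and 1.03 at 3% oxygen. Immortalized cells at atmospheric oxygen (0.694 and 0.605) overlapped with metastasizing cells at atmospheric oxygen.

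Across the 8 group means of log2(TPM + 0.5), MMP2 and TIMP2 had the most similar patterns among the 10 genes (Pearson r = 0.975), followed by TIMP1 and TIMP2 (0.926). MMP1 and MMP16 stood apart from the other members, with r between -0.18 and 0.27 for MMP1 and between -0.60 and 0.39 for MMP16. Among 13145 genes, the 3 most like each enzyme were VPS37B, SYS1-DBNDD2 and ALDH1A3 for MMP1 (0.906 to 0.879), PCED1B, PLAC9 and EFEMP2 for MMP2 (0.99 to 0.982), CRYL1, SUSD6 and CD36 for MMP3 (0.975 to 0.965), MALL, RGN and RDH10 for MMP10 (0.985 to 0.979), ATXN1, TNFSF18 and PLCD3 for MMP11 (0.97 to 0.953), CD9, SVIL and ANO10 for MMP14 (0.986 to 0.965) and GOSR2, GNL3L and DFFA for MMP16 (0.987 to 0.974). For the inhibitors they were CHPF, PRRX2 and VPS28 for TIMP1 (0.995 to 0.986), A2M, ITGA11 and AMIGO2 for TIMP2 (0.99 to 0.989) and AIDA, OSTF1 and ARHGAP22 for TIMP3 (0.99 to 0.985). These are descriptions over 8 points of 2 libraries each, picked from many genes.

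Other genes of matrix proteolysis were described from lists. Of all 13146 genes tested in at least 1 of the 13 comparisons, 43.8% were called in at least 1, the background for the counts of called genes in each list. Of 17 other MMP genes and TIMP4, 8 were tested in at least 1 comparison and 4 were called in at least 1. The oxygen response of MMP7 was 1.87 higher in transformed than in immortalized cells (adjusted p = 0.00315). MMP7 entered this test only through immortalized cells at atmospheric oxygen (mean 1.63 TPM). In every other group its mean was below 1 TPM, so the difference rests on low values and on the group where MMP7 was highest. MMP19 was lower in transformed than in immortalized cells at 3% oxygen (6.73 against 19.1 TPM, log2 fold change -1.44, adjusted p = 0.00136), and TIMP4 was higher in immortalized than in primary cells at atmospheric oxygen (4.70 against 0.309 TPM, 2.69, adjusted p = 5.58e-05). MMP15, a membrane-type enzyme, was higher in transformed than in immortalized cells at 3% oxygen (3.12 against 0.118 TPM, 2.55, adjusted p = 1.08e-05).

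Of 11 other regulators of MMP activity, 6 were called in at least 1 comparison. RECK, a membrane-anchored inhibitor of several MMPs, fell from 109 to 10.9 TPM from immortalized to transformed cells at atmospheric oxygen (-3.27, adjusted p = 2.18e-08). The inhibitor A2M fell from 19.5 to 0.429 TPM at the same step (-4.43, adjusted p = 3.2e-06). PLAU, the urokinase that generates plasmin, fell from 360 to 35.6 TPM there (-3.31, adjusted p = 4.99e-07). TFPI2, a serine protease inhibitor, had an oxygen response that differed by -4.11 between immortalized and primary cells (adjusted p = 0.000957). In metastasizing cells 2 of 8 regulators tested were called higher at 3% oxygen and 1 lower, beside 3.06% and 4.60% of all genes. PLAU rose by 1.74 (adjusted p = 0.000306), TFPI2 rose by 1.51 and RECK fell by 1.01 (adjusted p = 0.000412). The inhibitor TIMP4, of the list before, was also called higher there (1.83). Without library a at 3% oxygen TFPI2 was at 1.65 and TIMP4 at 1.35, and without library b they were at 1.37 and 2.32. TIMP4 was called each time and TFPI2 neither time. Without library a at 3% oxygen PLAU was at 2.12 and without library b at 1.36, both called, whereas RECK was not called without library a (-0.86) and was called without library b (-1.15).

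Of 11 matrix substrates, 11 were called in at least 1 comparison. In transformed cells 3 of 11 were called lower at 3% oxygen and none higher, beside 2.58% of all genes called lower. In metastasizing cells 6 of 11 were called lower at 3% oxygen and none higher, beside 4.60% of all genes called lower, among them COL1A2, a chain of type I collagen (-2.20, adjusted p = 0.00373), and DCN, the proteoglycan decorin (-2.53, adjusted p = 0.00042). Without library a at 3% oxygen all 6 were called, with COL1A2 at -1.26 and DCN at -1.79, and without library b 4 of the 6 were, with COL1A2 at -3.14 and DCN at -3.27, while COL4A1 (-0.84) and COL4A2 (-0.92), both of type IV collagen, were not. The oxygen response differed between transformed and metastasizing cells for 1 of 11, DCN (-2.96), beside 8.47% of all genes. DCN fell by 6.29 from immortalized to transformed cells at atmospheric oxygen (1871 to 23.4 TPM, adjusted p = 1.32e-07). At 3% oxygen COL1A1 fell by 2.68 (adjusted p = 0.00053) and COL1A2 by 3.45 (adjusted p = 9.08e-05) at that step. There 8 of 11 were called lower, beside 7.38% of all genes. COL4A1, of basement membranes, fell by 2.62 from primary to immortalized cells at atmospheric oxygen (280.0 to 45.1 TPM, adjusted p = 2.2e-05).

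Of 13 AP-1 and ETS transcription factors, a class known to act on MMP promoters, 7 were called in at least 1 comparison. With 3% oxygen 1 was called higher in primary, 0 in immortalized and 3 in transformed cells, beside 2.78%, 2.13% and 4.90% of all genes. In metastasizing cells 4 were higher at 3% oxygen, where 3.06% of all genes were: FOSL1 (1.15, adjusted p = 0.00102), ETS1 (1.16, adjusted p = 0.00202), ETV4 (1.26, adjusted p = 0.000306) and ELK3 (1.03, adjusted p = 0.00777). ETV4 alone was called without either library at 3% oxygen (1.09 without a and 1.44 without b). Without library a FOSL1 (0.77) and ETS1 (0.81) were not called and ELK3 was (1.54), and without library b FOSL1 (1.52) and ETS1 (1.51) were called and ELK3 was not (0.52). ETS2 rose from 27.9 to 111 TPM from primary to immortalized cells at atmospheric oxygen (1.97, adjusted p = 3.91e-06), and the oxygen response of ETV1 differed by -2.75 between metastasizing and transformed cells (adjusted p = 0.00555), and by -1.93 without library a and -3.57 without library b, both called. FOSL1 had 377 TPM in metastasizing library a at 3% oxygen and 225 TPM in library b, while MMP1 was higher in library b. Whether the levels of FOSL1 and MMP1 are related was not tested. Of 22 ADAM and ADAMTS proteases, 19 were tested in at least 1 comparison and 13 were called in at least 1, beside 43.8% of all genes tested. ADAMTS2, which trims procollagen, fell from 99.96 to 9.19 TPM from primary to immortalized cells at atmospheric oxygen (-3.37, adjusted p = 3.94e-07). At 3% oxygen ADAMTS4 and ADAM12 fell at that step (-2.74 and -2.73, adjusted p = 0.00107 and 2.75e-05), and ADAMTS5, which cleaves aggrecan, fell from transformed to metastasizing cells (7.33 to 0.295 TPM, -3.31, adjusted p = 3.37e-06), also without metastasizing library a (-3.50) or b (-3.12).

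MMP1, MMP3 and MMP10 lie side by side on the minus strand of chromosome 11 (GRCh37), MMP10 at chr11:102641233-102651359, MMP1 at chr11:102660132-102668891 and MMP3 at chr11:102706532-102714340. MMP10 ends 8773 bases from MMP1, and MMP1 ends 37641 bases from MMP3. The cluster holds 9 MMP genes over 435223 bases, of which 5 had a mean below 1 TPM in every group. MMP7, at its edge, exceeded 1 TPM in immortalized cells at atmospheric oxygen alone (1.44 and 1.82 TPM), the group with the highest MMP3. Of the stretches of 31 bases in the transcripts of each gene, 6.91% of MMP3 and 7.11% of MMP10 were shared with other genes, mostly with each other, 4.84% of MMP1 with WTAPP1, 9.51% of TIMP2 with other genes, and none of MMP14, TIMP1 or TIMP3. How reads from shared stretches were divided cannot be seen in the table. These libraries are bulk RNA, in which fewer cells of a type and less RNA per cell cannot be told apart.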

How the data were processed

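RNA from duplicate plates of 8 groups (16 libraries) had been sequenced from stranded poly-A libraries. Per the labels and the study's methods, the authors quantified transcripts with kallisto 0.42.1 on GRCh37, and TPM (transcripts scaled to 1000000 a library) were deposited. TPM keep no depth, and a large rise of some genes lowers the share of others. The authors' own test used estimated counts, which TPM do not give.

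Of 180253 transcripts, 151453 were matched to a gene of GENCODE 44 on GRCh37 (88.2% to 90.1% of the TPM) and summed by gene. Protein-coding genes averaging 1 TPM or more in a compared group were tested with limma 3.58.1 (R 4.3.3), with eBayes and trend, on log2(TPM + 0.5), 1 coefficient for each group and 8 residual degrees of freedom. The 13 comparisons were the oxygen levels within 4 stages, neighbouring stages at each oxygen level, and 3 differences of oxygen responses. Calls needed more than 2-fold and a Benjamini-Hochberg adjusted p under 0.01. An exact permutation test of 2 against 2 libraries cannot go below a two-sided p of 0.333, so none is given. The fit was tested on simulated data. Other steps used Python 3.11.15, pandas 2.3.3, numpy 2.4.6 and matplotlib 3.10.9.

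Named genes are the 10 members, TERT and HRAS, the 3 genes most similar to each member, and up to 4 called genes with the largest changes from each list. FOSL1, ETS1 and COL4A2 were named after their values were seen. The members and lists were chosen with earlier results of these data known. Alternatives were other pseudocounts, filters, rescalings and thresholds, fits restricted to the compared groups, a replicate block, array weights, protein-coding transcripts alone and each library left out, where the lone library of a group is assumed to vary like the others. A crossed block was added after the data were seen.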

Additional observations from a re-analysis of the deposited data

Results flagged for a closer look

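The oxygen response differed between neighbouring stages for 12 pairs of gene and step in limma's test of the difference (Benjamini-Hochberg over all genes), each given here as the log2 response of the later stage minus that of the earlier one. From primary to immortalized cells the difference was -2.84 for MMP1 (adjusted p = 0.00636), -4.86 for MMP3 (adjusted p = 0.000349) and -1.85 for MMP14 (adjusted p = 0.00298). MMP3 was called without any of the 8 libraries, whereas MMP1 was lost without each of the 8 (adjusted p = 0.0124 to 0.0332) and MMP14 without 7 of 8 (adjusted p up to 0.0178).

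From immortalized to transformed cells it was 2.29 for MMP1 (adjusted p = 0.00489), 1.91 for MMP2 (adjusted p = 0.000103), 4.50 for MMP3 (adjusted p = 9.17e-05), 1.60 for MMP14 (adjusted p = 0.0015) and -1.79 for MMP16 (adjusted p = 0.00109). MMP1 was lost without 6 of 8 libraries (adjusted p up to 0.0233), and the other 4 were called each time. With protein-coding transcripts alone the MMP16 difference was -1.18 (adjusted p = 0.0317).

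From transformed to metastasizing cells it was 4.97 for MMP1 (adjusted p = 0.000106), -1.93 for MMP2 (adjusted p = 0.000161), 2.35 for MMP3 (adjusted p = 0.00462) and 1.32 for MMP16 (adjusted p = 0.0077). Without metastasizing library a or b at 3% oxygen MMP1 was at 5.42 and 4.53 and MMP2 at -1.75 and -2.10, all called. MMP3 was lost without 5 of 8 libraries, metastasizing library a at 3% oxygen among them (2.19, adjusted p = 0.013), and MMP16 without 6 of 8, library b among them (1.23, adjusted p = 0.0138). With protein-coding transcripts alone the MMP16 difference here was 0.69 (adjusted p = 0.196).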

How the results depend on the processing

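No call of a member changed direction under any alternative. Of 47 calls, 18 were kept under all and 29 were lost under at least 1, and of 862 pairs of call and alternative 730 stayed called. The counts of called members moved by over 1.5 times as follows, with the cause not tested. The count in primary cells with oxygen was 1 in place of 4 when only the groups compared were fitted. In immortalized cells it was 5 in place of 3 after median-ratio rescaling. In transformed cells it was 0 in place of 1 with only the groups compared or protein-coding transcripts, and 2 after quantile normalization. In metastasizing cells it was 1 in place of 2 with only the groups compared or array weights. From primary to immortalized cells at atmospheric oxygen it was 3 in place of 5 after quantile normalization or with only the groups compared, and from transformed to metastasizing cells it was 2 in place of 1 under quantile normalization, only the groups compared, array weights or an adjusted p under 0.05. At 3% oxygen the latter step gave 0 in place of 2 with only the groups compared, and the difference of oxygen responses between transformed and metastasizing cells 2 in place of 4 with only the groups compared or array weights. With 1 library left out, the counts ranged from 2 to 4 (primary), 1 to 3 (immortalized), 0 to 1 (transformed) and 1 to 4 (metastasizing) for oxygen, from 1 to 4, 6 to 7 and 0 to 0 for the steps at atmospheric oxygen, from 1 to 5, 4 to 5 and 2 to 3 for those at 3% oxygen, and from 1 to 2, 4 to 5 and 2 to 4 for the differences of responses.

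The letters a and b name the plates, and the correlation of same-letter deviations ranged from -0.169 to 0.246 over the comparisons, so no pairing was assumed. The replicate block gave 0 calls in transformed cells and 1 in metastasizing cells with oxygen, and 0, 3 and 2 for the differences of responses. The crossed pairing gave 2 calls in primary, 2 in immortalized and 2 in metastasizing cells with oxygen, and 9 from immortalized to transformed cells at atmospheric oxygen.

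For the balance, leaving out MMP1 left almost no change with oxygen in metastasizing cells (-0.025 in place of 3.70). It reversed the change from transformed to metastasizing cells at atmospheric oxygen (0.49 in place of -0.59). The change of primary cells moved to -1.18 and that from immortalized to transformed cells to -2.45. Without TIMP1 the changes were -1.53 (primary), -2.15 (immortalized) and 0.17 (transformed) with oxygen, and 0.94, -0.89 and -0.67 at the 3 steps. With means of logged values, which weight the genes equally, they were -1.03 (immortalized), 0.10 (transformed) and 0.75 (metastasizing) with oxygen and 0.82, -0.58 and -0.40 at the steps. With protein-coding transcripts the last step was -0.61. With 1 library left out the ranges were -0.72 to -0.64, -1.99 to -1.44, 0.41 to 1.10 and 3.18 to 4.22 with oxygen, and 0.96 to 1.502, -1.46 to -0.92 and -0.59 to -0.59 at the steps. The median of all genes lay off 0 by over 0.1 with oxygen in immortalized (0.11) and metastasizing cells (-0.13), at the step from immortalized to transformed cells (0.22 at atmospheric and 0.11 at 3% oxygen) and for the last difference of responses (-0.15).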
